A study of Sus scrofa with 48 samples.

Results

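The genes examined here encode the subunits of the 5 oxidative phosphorylation complexes and a few of their assembly factors, measured in the perirenal adipose tissue of 48 pigs. They were the gene names on the array that start with NDUF, SDHA, SDHB, SDHC, SDHD, UQCR, COX followed by a digit, or ATP5, which gave 77 names and 242 probes of 46723 names and 60305 probes in all. The probe with the highest mean level stood for each gene. By function 65 of the names were subunits, 9 were assembly factors and 3 were neither: SDHAP3, named after a human pseudogene of SDHA, COX7A2L, a factor of respiratory supercomplexes, and NDUFA4L2, a paralog of NDUFA4. There were 31 members for complex I, 5 for complex II, 7 for complex III, 22 for complex IV and 12 for complex V. ATP5SL was placed with complex I as an assembly factor and NDUFA4 with complex IV, although their symbols would put them elsewhere.

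The pigs were Large White barrows (castrated males) aged 132 days, from 2 lines divergently selected on residual feed intake (RFI), the gap between what an animal eats and what its growth and maintenance predict. Pigs of the low RFI line (RFIneg in the labels) or the high RFI line (RFIpl) had free access to one of 2 diets. HF was high in fat and fiber, and LF was low in both and rich in starch. Each of the 4 groups of diet and line held 12 pigs, and each pig had its own array, so replicates are separate animals. Because fat and fiber were raised together at the expense of starch, the nutrients cannot be told apart, and a line difference belongs to this pair of selected lines.

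Oxidative phosphorylation is the last stage of respiration in mitochondria. Complexes I and II pass electrons from NADH and succinate to ubiquinone, complex III hands them to cytochrome c, complex IV reduces oxygen, and complex V, the ATP synthase, uses the proton gradient that the others build. Most subunits are encoded in the nucleus and imported, while a small core of complexes I, III, IV and V is encoded in mitochondrial DNA. White adipocytes hold few mitochondria next to muscle or brown fat, and use them for ATP and for the citrate and glycerol from which triglycerides are made.

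Levels are given as log2 spot intensity minus the median of the same array, so that a difference of 1 is a doubling, and differences are HF minus LF. A member entered the test if its probe was well above background on every array of at least one group. This held for 75 of the 77 members. The others were NDUFAF1, a complex I assembly factor that was well above background on 1 of 48 arrays, and COX8H, an isoform of a small complex IV subunit that was so on 7. A gene was called when its p-value was under 0.01, its fold over 1.1 and its adjusted p under 0.08. The arrays had 38875 to 47814 probes well above background, lay on 6 slides with every group on each slide, and no member's brightest probe was saturated. How many arrays there were limits the precision of what follows. All 6 adipocyte markers examined, among them ADIPOQ, PLIN1 and FABP4, were well above background on 48 of 48 arrays.

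The HF diet went with lower expression of nearly the whole set. Of the 75 members tested, 63 were called lower in HF than in LF pigs and 0 higher (limma, Benjamini-Hochberg adjustment over 40509 probes). Among all probes tested 15.2% were called lower and 9.06% higher. Counting the brightest probe of each gene name, 13.8% were called lower and 10.2% higher. In either direction 24.3% of all tested probes were called. At an unadjusted p under 0.05 there were 70 members lower and 0 higher, beside 16866 of all 40509 probes in either direction. The median difference was -0.29 over the members and -0.30 over the 64 subunits tested, beside -0.02 over all tested probes. The differences ran from -0.47 to 0.056, the highest being that of COX4I2, the only member above 0 with centring on the array median. The balance of all probes depended on how arrays were scaled. It was 12.1% lower and 12.0% higher with scaling to the 75th percentile, 11.4% and 12.3% after quantile normalization, 10.74% and 11.5% after normexp and quantile normalization, and 12.7% and 13.4% from the scanner's processed signal scaled to its 75th percentile. With centring on spike-in controls the split was 4.24% and 25.4%, and 30 members were called lower and 0 higher. That centring raised the median of all tested probes from -0.02 to 0.09. The members' own median was -0.29 with centring on the array median and -0.18 with spike-in centring. Minus the median of all tested probes it was -0.27 under both centrings. Each centring subtracts a constant from all probes of an array, so this gap could hardly change between them. Its agreement is therefore no test of the members' difference. With centring on the array median 74 of the 75 estimates were below 0, beside 55.8% of all tested probes. Of the 75 estimates 67 were below 0 with spike-in centring and 70 after quantile normalization. The median of all tested probes was then 0.09 and 0.0021, and the share of them below 0 is not given. Members varied together from pig to pig, so these counts are not of independent estimates.

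**Figure D1:**
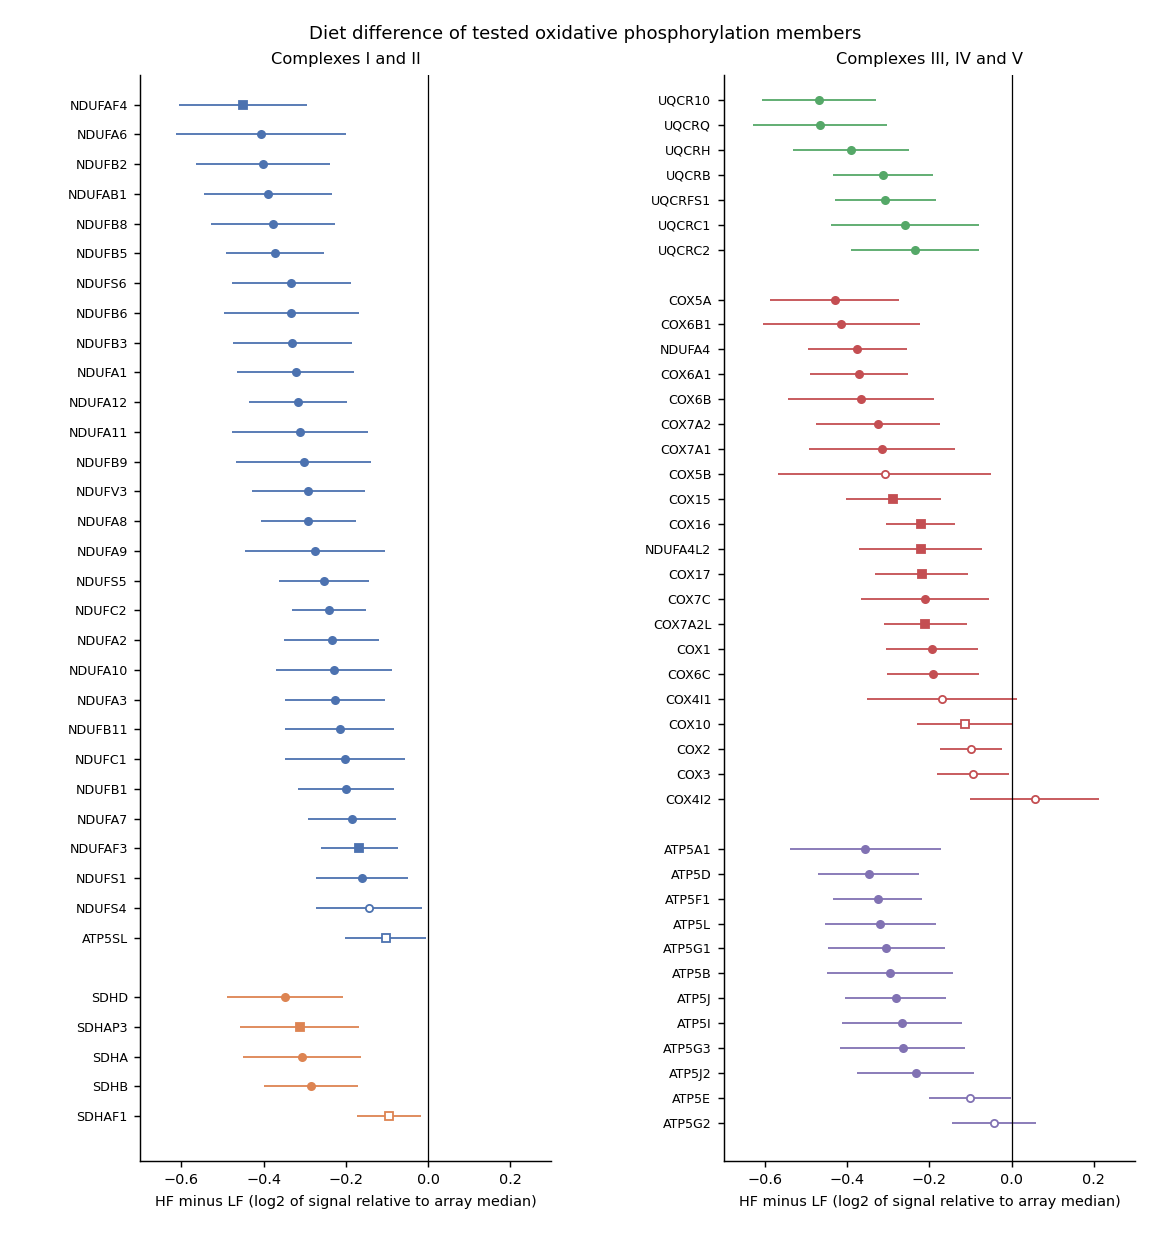
HF minus LF difference in log2 level for 74 of the tested members, arranged by complex, with its 95% interval from the fit over 48 pigs. Circles are subunits, squares are other members, and filled symbols are the 63 called lower. All points except that of COX4I2 lie to the lower side of 0.

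Complex I, NADH dehydrogenase, has a matrix arm that oxidizes NADH and a membrane arm that pumps protons. Of its 27 nuclear subunits, 25 were called lower, with a median difference of -0.29. All 16 membrane arm subunits were called lower (median -0.30, from -0.40 to -0.20), and 8 of 10 subunits of the matrix arm (median -0.25). NDUFB5, a membrane arm subunit, ranged from 3.79 to 4.50 in the 24 HF pigs with a median of 4.15, and from 4.003 to 4.94 in the 24 LF pigs with a median of 4.57. The groups overlapped, but no HF pig reached the LF mean and 23 of 24 LF pigs exceeded the HF mean. The difference was -0.37 (SE 0.059, adjusted p = 7.98e-06), 1.29-fold lower in HF pigs.

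NDUFAB1 is the mitochondrial acyl carrier protein, which serves fatty acid synthesis in the matrix besides sitting in complex I. It had a median of 6.64 in HF pigs (6.08 to 7.05) and 6.99 in LF pigs (6.36 to 7.49), a difference of -0.39 (SE 0.077, adjusted p = 0.000177). The other, dimmer probe of NDUFAB1 was at -0.093 and was not called. NDUFA12, an accessory subunit of the matrix arm, had a median of 5.94 in HF (5.53 to 6.24) against 6.27 in LF pigs (5.75 to 6.68) and differed by -0.32 (adjusted p = 9.53e-05). NDUFC2 of the membrane arm differed by -0.24 (SE 0.045, adjusted p = 7.6e-05), with medians of 7.41 and 7.62, and 22 of 24 LF pigs exceeded the HF mean. NDUFS4, an accessory subunit of the matrix arm, was not called, at -0.14 (p = 0.0308, adjusted p = 0.084, limma).

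Complex II, succinate dehydrogenase, also belongs to the tricarboxylic acid cycle and is wholly nuclear encoded. SDHA (the flavoprotein), SDHB (the iron-sulfur protein) and SDHD (a membrane anchor) were all called lower. SDHD ranged from 6.73 to 7.34 in HF pigs (median 6.99) and from 6.62 to 7.82 in LF pigs (median 7.39), so that LF pigs reached both lower and higher than HF pigs, while no HF pig reached the LF mean. Its difference was -0.35 (SE 0.070, adjusted p = 0.000221). SDHB differed by -0.28 (SE 0.057, adjusted p = 0.000193), from a median of 7.17 in HF (6.80 to 7.47) to 7.43 in LF pigs (6.98 to 7.75). SDHA differed by -0.31 (SE 0.071, adjusted p = 0.00103), with medians of 8.84 in HF (8.40 to 9.16) and 9.15 in LF pigs (8.51 to 9.48). SDHAF1, the assembly factor of this complex, was at -0.094 and was not called.

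The array names SDHAP3 apart from SDHA, but their brightest probes are one and the same sequence over all 60 bases. The first 30 bases of each are shown because they make this pair a repeated measurement of a single target and not 2 genes:
SDHA: gcctttgtccctgcttcgttcttgtgaaat
SDHAP3: gcctttgtccctgcttcgttcttgtgaaat
Over the 48 arrays these 2 spots differed by an SD of 0.036 and by at most 0.090, with a correlation of 0.992. That spread between spots of one sequence is well under the diet difference of either name (both -0.31).

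Complex III, the cytochrome bc1 complex, had all 7 of its measured nuclear subunits called lower, with a median difference of -0.31. Its small accessory subunits UQCR10, UQCRQ, UQCRH and UQCRB differed by -0.43 at the median and the larger core proteins UQCRC1 and UQCRC2 by -0.25, a gap between subunit classes that was not tested. UQCR10 had the smallest p of all members. Its level ran from 7.91 to 8.50 in HF pigs (median 8.14) and from 8.12 to 9.15 in LF pigs (median 8.78). Every HF pig was under the LF median, and 21 of 24 LF pigs exceeded the HF mean, but the groups overlapped. The difference was -0.47 (SE 0.069, 95% interval -0.61 to -0.33, adjusted p = 2.52e-06), 1.38-fold lower.

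UQCRQ, a small subunit close to cytochrome b, differed by the same amount (-0.47, SE 0.081, adjusted p = 3.25e-05), with medians of 6.44 in HF (6.24 to 6.93) and 7.07 in LF pigs (6.26 to 7.40). UQCRH, the hinge protein that aids the docking of cytochrome c, differed by -0.39 (adjusted p = 5.1e-05), with medians of 8.54 in HF (8.08 to 8.78) and 8.89 in LF pigs (8.46 to 9.27). UQCRB, a ubiquinone-binding subunit, differed by -0.31 (adjusted p = 0.000133), with medians of 7.02 and 7.36, and all 8 of its probes were called lower. The fit of UQCRC2 left out 1 HF array on which its spot was marked as an outlier. It and the Rieske protein UQCRFS1 differed by -0.24 and -0.31.

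Complex IV, cytochrome c oxidase, holds both nuclear and mitochondrially encoded subunits. Of 12 nuclear subunits tested 9 were called lower (median -0.32), and of the 3 subunits encoded in mitochondrial DNA, which form its catalytic core, 1 (median -0.099). COX5A, a nuclear subunit that contacts the matrix, had a median of 7.43 in HF (6.90 to 7.87) and 7.87 in LF pigs (7.19 to 8.32). Its difference of -0.43 (SE 0.078, adjusted p = 5.79e-05) was 1.35-fold, and 21 of 24 LF pigs exceeded the HF mean. COX6A1, COX6B1 and NDUFA4, other nuclear subunits, differed by -0.37 (adjusted p = 8.24e-06), -0.41 (adjusted p = 0.000859) and -0.38 (adjusted p = 9.64e-06). For COX6A1 the medians were 9.25 in HF (8.90 to 9.53) and 9.58 in LF pigs (9.20 to 10.03). For COX6B1 they were 7.11 in HF (6.60 to 7.62) and 7.56 in LF pigs (6.60 to 8.05). For NDUFA4 they were 8.56 in HF (8.21 to 8.87) and 8.93 in LF pigs (8.37 to 9.31), and no HF pig reached the LF mean. COX6B is an older symbol of COX6B1 that the array lists apart. Counting this gene once, 54 of 63 subunits were called lower.

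The 3 mitochondrially encoded subunits are shown by their brightest probes, which lie in coding sequence:
COX1: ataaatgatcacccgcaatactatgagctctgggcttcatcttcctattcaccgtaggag
COX2: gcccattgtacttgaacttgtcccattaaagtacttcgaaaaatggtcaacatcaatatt
COX3: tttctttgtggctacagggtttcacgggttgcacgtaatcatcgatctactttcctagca
COX1 ranged from 10.84 to 11.36 in HF pigs (median 11.16) and from 10.68 to 11.65 in LF pigs (median 11.34), a difference of -0.19 (SE 0.055, adjusted p = 0.00658). COX2 had medians of 10.82 and 10.94 and was not called, at -0.099 (p = 0.0104, adjusted p = 0.0378, limma), 1.07-fold and so under the fold threshold. COX3 had medians of 11.47 and 11.52, at -0.094 (adjusted p = 0.0964). The estimates of COX2 and COX3 turned to 0.010 and 0.015 with spike-in centring, and also passed 0 after quantile normalization. The choice of probe mattered here. Of the 25 probes tested for COX1 19 were called lower, of 14 for COX3 9, and of 5 for COX2 3, while the differences within COX2 alone ran from -0.31 to -0.099.

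Probes of COX1 lie on both strands. The pair below shares a run of 46 bases, in capitals, read on opposite strands. The first is written in the sense of the coding sequence, and the second reads that run in reverse complement:
COX1 probe called lower: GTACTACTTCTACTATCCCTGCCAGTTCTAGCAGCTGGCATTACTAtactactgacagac
COX1 probe not called: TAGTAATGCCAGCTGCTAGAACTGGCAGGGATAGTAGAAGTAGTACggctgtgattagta
The first was at -0.28 (SE 0.074, adjusted p = 0.0037) and the second at -0.13 (SE 0.087, adjusted p = 0.273, limma). Both were well above background on 48 of 48 arrays, but their mean levels were 10.15 and 2.02. They are therefore not like readings of COX1, although the second is among the 25 COX1 probes counted above. Whether the 2 differences differ from each other was not tested.

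A list of all 13 protein genes of mitochondrial DNA added subunits of complexes I, III and V that the name rule leaves out (ND1 to ND6, CYTB, ATP6 and ATP8). All 13 were measured, 11 were called lower and 0 higher, with a median difference of -0.20. The range was from -0.28 in ND4L and ATP8 to -0.094 in COX3. With spike-in centring 2 were called, and after quantile normalization 4.

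Complex V has a catalytic F1 head, a stalk and a proton-conducting ring in the membrane. It had 10 of 12 subunits called lower (median -0.29). The catalytic beta subunit ATP5B and the alpha subunit ATP5A1 were at -0.30 and -0.36, and every one of their 10 and 15 tested probes was called lower. ATP5F1, subunit b of the peripheral stalk, had a median of 7.39 in HF (7.20 to 7.82) and 7.78 in LF pigs (7.37 to 8.09). Its difference was -0.33 (SE 0.054, adjusted p = 1.67e-05), and all 13 of its probes were called. ATP5D, the delta subunit of the central stalk, had a median of 5.54 in HF (5.05 to 5.997) and 5.91 in LF pigs (5.55 to 6.21). All 24 LF pigs exceeded the HF mean, and the difference was -0.35 (SE 0.061, adjusted p = 3.5e-05). ATP5L and ATP5J, subunits of the membrane part and the peripheral stalk, differed by -0.32 and -0.28 (adjusted p = 0.000333 and 0.000502). For ATP5L the medians were 7.61 in HF (7.21 to 7.85) and 7.93 in LF pigs (7.29 to 8.24), and for ATP5J 6.99 in HF (6.64 to 7.47) and 7.33 in LF pigs (6.67 to 7.51). ATP5E, the epsilon subunit, was at -0.10 (p = 0.045, adjusted p = 0.111, limma), with none of 3 probes called.

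The c ring of complex V is built from one mature protein that 3 genes, ATP5G1, ATP5G2 and ATP5G3, encode with different import signals. ATP5G1 and ATP5G3 were called lower in HF pigs, at -0.30 (SE 0.071, adjusted p = 0.0011) and -0.27 (SE 0.075, adjusted p = 0.00639). ATP5G2 had a median of 8.70 in HF (8.37 to 8.93) and 8.73 in LF pigs (8.39 to 9.02), a difference of -0.043 (95% interval -0.15 to 0.059) that turned positive after quantile normalization and with spike-in centring. The level of ATP5G2 relative to ATP5G1 was higher in HF pigs by 0.26 (SE 0.061, permutation test with 100000 resamples, two-sided, p = 0.00015, adjusted p = 0.0015 over 10 such ratio tests). This ratio does not depend on array scaling by a constant. ATP5G3 relative to ATP5G1 differed by 0.039 with diet (permutation p = 0.211), and was higher in the low RFI line by 0.083 (SE 0.032, permutation p = 0.0123, adjusted p = 0.0409). The line p-values of the other 4 ratios ran from 0.247 to 0.879. The 2 probes below were taken from ATP5G1 and ATP5G2 because they share a run of 18 bases, in capitals, at the end of the coding sequence, and differ around it:
ATP5G1: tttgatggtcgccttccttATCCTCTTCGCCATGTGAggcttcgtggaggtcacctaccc
ATP5G2: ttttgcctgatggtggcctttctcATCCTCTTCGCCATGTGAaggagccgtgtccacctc
The ATP5G2 probe shown is the dimmer of its pair, and was at -0.065 (p = 0.135, limma).

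**Figure D2:**
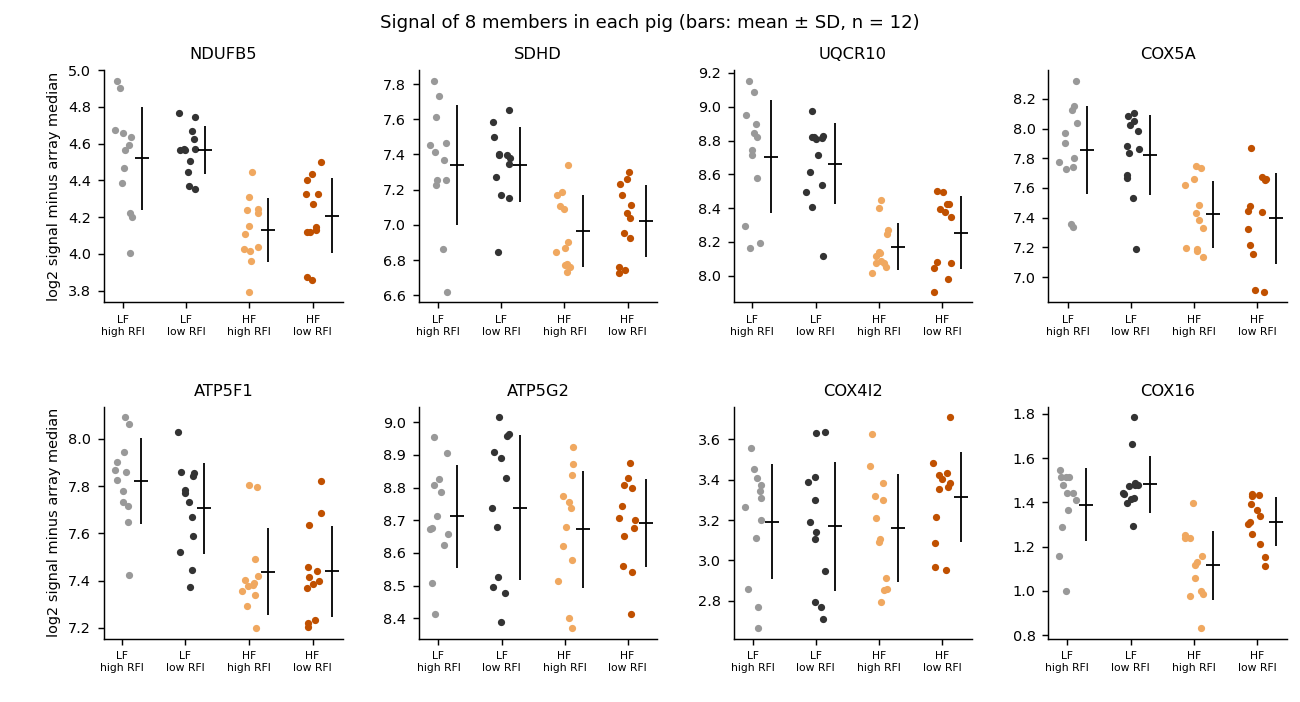
Log2 level per pig, relative to the array median, of 8 members in the 4 groups of diet and line (12 pigs each), with the mean and SD. HF pigs sit lower for NDUFB5, SDHD, UQCR10, COX5A, ATP5F1 and COX16 with overlap of single pigs, and the groups lie at like levels for ATP5G2 and COX4I2.

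Complex IV has further isoform pairs that differ between tissues. COX4I2 is the lung isoform of subunit IV and COX4I1 the ubiquitous one. COX4I2 ranged from 2.79 to 3.71 in HF (median 3.31) and from 2.66 to 3.64 in LF pigs (median 3.23), at 0.056 (95% interval -0.10 to 0.21). COX4I1 was at -0.17 (adjusted p = 0.152, limma) and was not called either. The ratio of COX4I2 to COX4I1 was higher in HF pigs by 0.23 (SE 0.096, permutation p = 0.0245, adjusted p = 0.0613). COX7A1, the heart and muscle isoform of subunit VIIa, and COX7A2, the liver isoform, differed by -0.32 and -0.33, and their ratio by 0.0097 (SE 0.048, permutation p = 0.841). NDUFA4L2, a paralog of NDUFA4 known as a target of hypoxia-inducible factor, was at -0.22 (adjusted p = 0.0202). Relative to NDUFA4 it was higher in HF pigs by 0.15 (permutation p = 0.00531, adjusted p = 0.0266). Only 1 of the 3 NDUFA4L2 probes was called, and the others lay above 0, at up to 0.028. The lower call and the ratio rest on the called probe alone. Printed below are the COX4I2 probe and a COX7A1 probe, which both lie in coding sequence and separate these isoforms from their counterparts:
COX4I2: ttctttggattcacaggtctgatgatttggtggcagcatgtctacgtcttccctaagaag
COX7A1: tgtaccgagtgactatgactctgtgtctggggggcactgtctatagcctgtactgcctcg
COX5B, a zinc-binding subunit, was at -0.31 but varied widely among pigs (2.47 to 3.79 in HF, 2.28 to 4.19 in LF) and missed the call (p = 0.0207, adjusted p = 0.0628, limma).

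Of the 8 assembly factors tested among the members, 5 were called lower (median -0.19). NDUFAF4, an assembly factor of complex I, had a median of 1.26 in HF (0.84 to 1.71) and 1.77 in LF pigs (1.12 to 2.33). It differed by -0.45 (SE 0.077, adjusted p = 2.63e-05), and no HF pig reached the LF mean. COX15, which makes heme A, COX17, a copper carrier, COX16 and NDUFAF3 were called lower, at -0.29, -0.22, -0.22 and -0.17. The other, dimmer probe of COX15 was at -0.025 and was not called. COX10, which acts before COX15 in heme A synthesis, was at -0.11 (adjusted p = 0.135), and ATP5SL at -0.10 (adjusted p = 0.106, limma).

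Agreement between probes of a gene was checked over all 242. Of 237 tested, 200 were called lower (84.4%) and 0 higher. Among the 37 genes with more than 1 tested probe, 24 had every probe called lower, 9 had some called, 4 had none, and in 1 (NDUFA4L2) the probes lay on both sides of 0. Probes of a gene can overlap, as do the 2 of UQCRQ, which share 59 bases, so they are not independent measurements. No member separated the diets completely: HF and LF ranges overlapped in 75 of 75. In 19 the highest HF pig was below the LF median. At the median over members, 22 of 24 HF pigs fell short of the LF mean and 21 of 24 LF pigs exceeded the HF mean. Like counts over all tested probes are not given, so these describe the members and do not set them apart from other genes.

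Averaging the subunits of a complex gave each pig a score, the mean deviation from the 48-pig mean. Over all 64 subunits it was -0.14 ± 0.17 (SD, n = 24) in HF and 0.14 ± 0.22 (SD, n = 24) in LF pigs. The HF mean was below the LF mean on 6 of 6 slides, with differences of -0.10 to -0.47. By complex the HF minus LF difference in score was -0.27 for I, -0.31 for II, -0.35 for III, -0.29 for the nuclear subunits of IV, -0.26 for V and -0.13 for COX1, COX2 and COX3 together. All 24 HF pigs were below the LF median of the all-subunit score, and 21 of 24 LF pigs were above the HF median. The remaining LF pigs were replicates 3 and 11 of the high RFI line (-0.36 and -0.30) and replicate 5 of the low RFI line (-0.30). The arrays of the former 2 were among the 3 least correlated with all others (median r 0.979 to 0.980, against up to 0.989). The third was replicate 11 of the low RFI line (score 0.074), so all 3 were LF arrays. Leaving out these 3 arrays drops the 2 LF pigs with the lowest scores, which itself widens the diet difference. Without the 3 least correlated arrays the median over members was -0.33. Then 67 members were called lower, beside 16.1% of all probes. Within the first and second scan day 39 and 41 were, beside 8.81% and 8.87%.

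**Figure D3:**
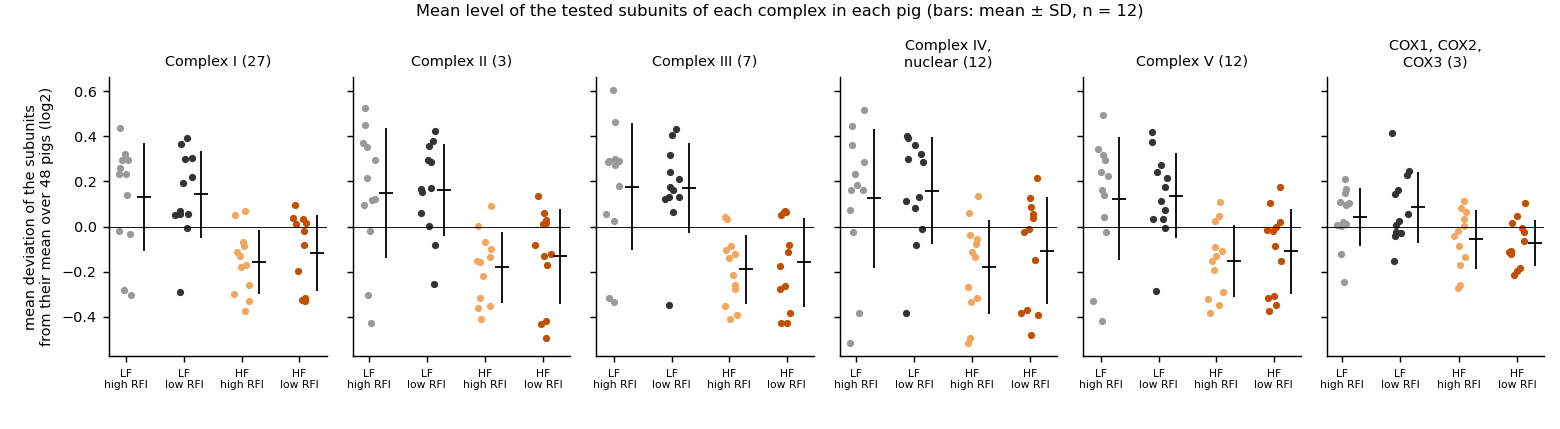
Mean log2 deviation of the subunits per pig, in panels for complex I (27 subunits), II (3), III (7), nuclear subunits of IV (12), V (12) and the mitochondrially encoded COX1, COX2 and COX3 (3). Points are pigs in the 4 groups of diet and line, with the mean and SD (n = 12). The means of both HF groups lie below those of both LF groups in each panel, with overlap of single pigs.

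Subunits varied together from pig to pig within the groups of diet and line. The median correlation over the 48 pigs, after removing group means, was 0.65 for 507 pairs of nuclear subunits of the same complex and 0.70 for 1323 pairs of different complexes. It was 0.37 between nuclear and mitochondrially encoded subunits (183 pairs), and 0.033 between a nuclear subunit and any tested probe of another gene. These are descriptions across genes that share arrays. ATP5L correlated most with the nuclear subunits (median r 0.85), and COX1 and COX4I2 least (0.26 and 0.32).

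By the brightest probe of each gene, 1 of the 75 members was called for line: COX16, an assembly factor that supports the insertion of copper into complex IV. Among all tested probes 3.57% were called for line, 1.82% higher and 1.75% lower in the low RFI line. The first 30 bases of its probe, the only one of this gene, are tcccaactcttccatttgcaaatgaaagct. Its level ran from 1.11 to 1.78 in low RFI pigs (median 1.42) and from 0.83 to 1.55 in high RFI pigs (median 1.25). The lines overlapped, with 21 of 24 low RFI pigs above the high RFI mean. The difference, low minus high RFI, was 0.14 (SE 0.042, p = 0.0012, adjusted p = 0.0454, limma), 1.11-fold. It was 0.20 in HF and 0.092 in LF pigs, and was called neither within a diet nor within a scan day, where it was 0.12 and 0.17. The share of all probes called for line was 1.08% in HF pigs, 0.309% in LF pigs, 0.585% and 0.953% within the scan days, and 2.85% with spike-in centring, where COX16 was at 0.12 and not called. After normexp and quantile normalization it was 0.13 and under the fold threshold.

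By brightest probe no subunit was called for line. COX7C was at 0.18 (p = 0.0279, adjusted p = 0.29, limma), and was the only other member with an unadjusted p under 0.05. NDUFV3, NDUFA9 and NDUFS1 followed by p, at 0.12, 0.11 and 0.074. Over all 75 members the line differences ran from -0.082 to 0.18 around a median of 0.029, with 16 below 0. Without the 3 least correlated arrays the median was -0.011, with 46 below 0. In the lists of neighbouring pathways SUCLA2 (0.47), COQ3 (0.33), TMEM126B (0.48) and TFB1M (0.22) were called higher and IDH3A (-0.26) lower in the low RFI line.

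Among all 237 tested probes of the members 2 more were called for line, beside 3.57% of all tested probes. With COX16 included, the share of member probes called was below that. Both were lower in the low RFI line and neither was the brightest of its gene. One of the 8 UQCRB probes ran from 4.48 to 6.07 in low RFI pigs (median 5.12) and from 5.29 to 6.18 in high RFI pigs (median 5.81). All 24 high RFI pigs exceeded the low RFI mean, with overlap of single pigs. Low minus high RFI was -0.59 (SE 0.090, adjusted p = 2.99e-05, limma), 1.504-fold, with -0.48 in HF and -0.69 in LF pigs. The other 7 UQCRB probes were at 0.025 to 0.041 for line, and share at most 6 bases in a row with it. One of the 4 NDUFB9 probes had a median of 6.80 in low (5.69 to 7.61) and 7.25 in high RFI pigs (6.35 to 7.72), a difference of -0.49 (SE 0.11, adjusted p = 0.00498). A second NDUFB9 probe, which shares 50 bases in a row with it, was at -0.17 (adjusted p = 0.242), and the other 2 were at 0.023 and 0.11. Both probes kept their call under all 6 other scalings tried. The UQCRB probe, which lies in coding sequence, is printed whole and the NDUFB9 probe by its first 30 bases, to show which probes were called:
UQCRB: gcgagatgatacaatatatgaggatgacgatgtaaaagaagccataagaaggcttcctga
NDUFB9: cgtgcaagtgaaataaattataggacatac
Within each of these genes some probes were called for line and others were not. Whether they differed from one another was not tested.

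The diet difference was present in both lines. In low RFI pigs alone 40 members were called lower, beside 8.45% of all probes, and in high RFI pigs alone 41, beside 9.33%. The medians were -0.27 and -0.30. The interaction of diet and line was called for 0 of 75 members and 0 of 40509 probes by limma, as by the two-way ANOVA of the methods. At an unadjusted p under 0.05 it held for 0 members and 903 probes. Smallest in p were NDUFC2, whose diet difference was -0.16 in the low and -0.32 in the high RFI line (p = 0.0768), COX3 (p = 0.162) and COX10 (p = 0.212), by limma, each with an adjusted p of 0.9999.

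Genes that work beside the complexes were counted from lists of the surrounding pathways. Of 12 enzymes of the tricarboxylic acid cycle tested, 8 were called lower in HF pigs and 0 higher (median -0.22), among them MDH2 at -0.47, DLD at -0.38 and citrate synthase CS at -0.36. Among 19 electron carriers, coenzyme Q enzymes, exchangers and uncouplers, 9 were called lower and 1 higher (median -0.20). Cytochrome c (CYCS) was at -0.54 and the ADP/ATP carrier SLC25A4 at -0.39, while the uncoupling protein homolog UCP2 was at 0.45. Of 14 assembly factors with other symbols 8 were called lower and 0 higher (median -0.17). Of 12 regulators of mitochondrial genes 1 was called lower, the mitochondrial DNA-binding protein SSBP1 (-0.23), and 1 higher, the terminator MTERF (0.14). The coactivator PPARGC1A and the mitochondrial transcription factor TFAM were at -0.11 and -0.074 and were not called. With spike-in centring the counts lower and higher were 5 and 0 for the cycle, 6 and 2 for the carriers, 0 and 1 for the other assembly factors, and 0 and 1 for the regulators, whose median turned to 0.041.

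**Figure D4:**
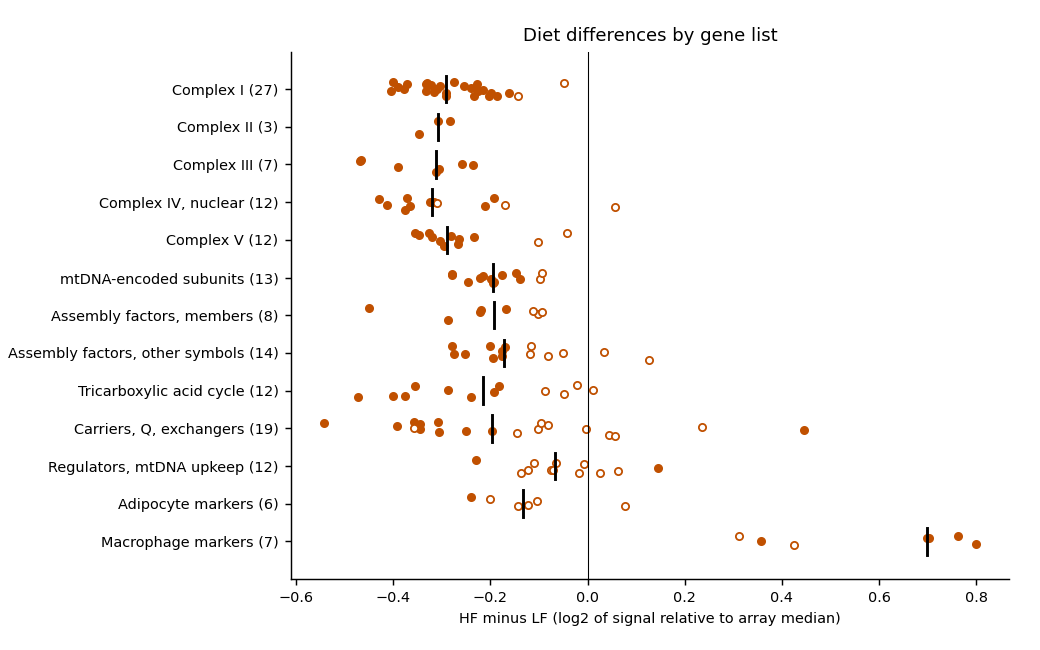
HF minus LF difference in log2 level of each tested gene in the oxidative phosphorylation complexes, in lists of neighbouring pathways and in lists of cell type markers. Bars are medians and filled points are called genes. The complexes lie near -0.3, the regulators near 0 and the macrophage markers near 0.7.

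Adipose tissue is a mixture of cells, and in whole tissue fewer cells of a type and less RNA per cell cannot be told apart. Of 7 macrophage markers tested, 5 were called higher in HF pigs and 0 lower (median 0.70, C1QA at 0.80), with CD68 not above background. Their mean level ran from 2.30 to 4.86 in HF and from 2.14 to 4.47 in LF pigs. Of 6 adipocyte markers 1 was called lower, the lipid droplet protein CIDEC (-0.24), with a median of -0.13. With spike-in centring 0 of them were lower and 1 was higher, and all 7 macrophage markers were higher. The mean adipocyte marker mean level ran from 9.43 to 9.94 in HF and from 9.54 to 9.98 in LF pigs. Within HF pigs the subunit score correlated with the adipocyte level at r 0.82 and with the macrophage level at -0.64, and within LF pigs at 0.68 and -0.095 (n = 24 each). Spearman's rho was 0.84 and -0.60 in HF, and 0.67 and -0.18 in LF pigs, and r without the 2 pigs farthest from the median was 0.82 and -0.58, and 0.65 and 0.0079. Values on these axes share each array's scaling. Markers of fibroblasts (0 of 4 called), endothelium (CLDN5 higher of 6), T and NK cells (NKG7 higher of 5), adrenal gland (0 of 2) and erythrocytes (0 of 1) gave few calls. Of 6 skeletal muscle markers tested 0 were called, and MYH2, MYL1 and MB were not above background. Kidney AQP2 was lower (-0.63), with SLC12A1, SLC34A1 and LRP2 not above background. Of the brown fat markers CIDEA was lower (-0.42) and DIO2 was not called. The part of these cell types in the differences of the subunits was not tested.

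**Figure D5:**
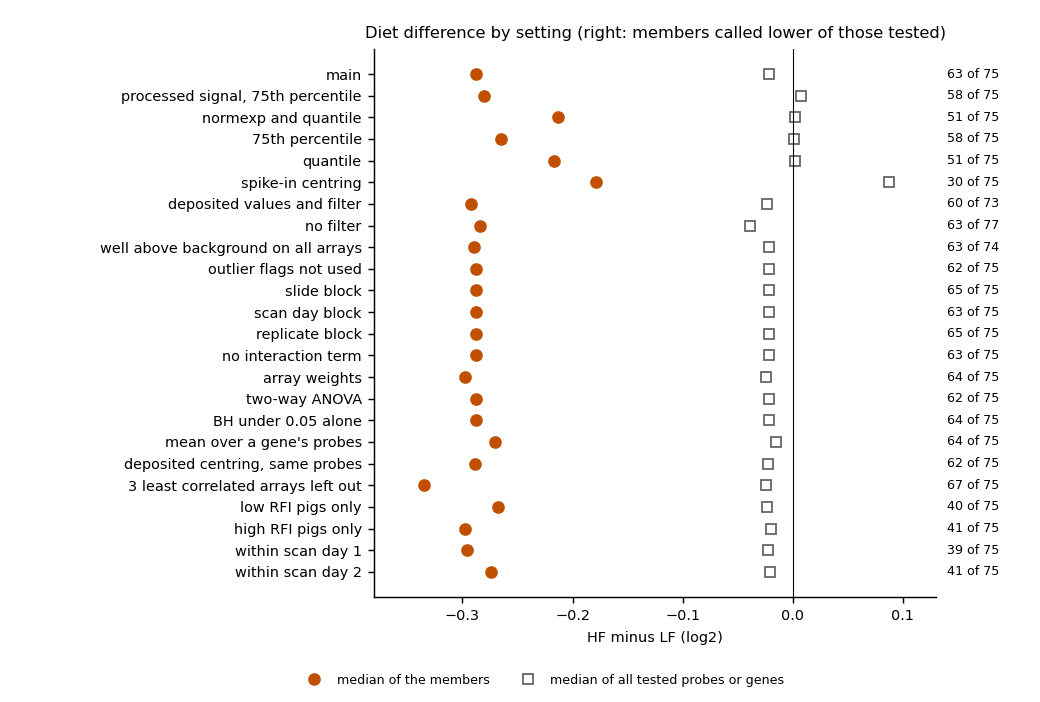
Median HF minus LF difference of the members and of all tested probes under each way of processing (left), and the number of members called lower of those tested (right). The members' median stays below that of all probes in every setting, and the count falls from 63 to 30 with spike-in centring. Settings that differ only by a constant per array could hardly change the gap between the medians.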

How the data were processed

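RNA of perirenal adipose tissue from 48 pigs was hybridised, labelled with Cy3, to one-colour Agilent 60-mer arrays, 1 pig an array. The authors scanned them with Feature Extraction 10.7.3.1, and the deposited spot intensity values are raw, with neither background subtraction nor scaling. Flags per spot, such as well above background, outlier and saturated, were deposited as other columns beside them. The authors also deposited a table of log2 intensity centred on the array median (R 2.10.0), after their own spot filters. All 38142 rows of it were matched to spots by their values (tolerance 1e-06), and 2 carried the name of the spot that they matched, so its row names were not used. Its values served as an alternative.

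The log2 of the median spot intensity minus the array median over non-control probes was tested with limma 3.58.1 in R 4.3.3 for diet, line and their interaction, with outlier spots left out. The test covered 40509 of 60305 probes. Calls needed p under 0.01, a fold over 1.1 and an adjusted p (Benjamini-Hochberg) under 0.08. The fit was tested on simulated data. Named were, in each complex, the 4 members with the smallest p for diet (all of complex II), the 5 for line and the 3 for the interaction, the isoform families, and members not called. The last, other probes called for line, and the examples from other lists, were chosen after their values were seen. Ratios of isoforms were tested by permutation. Alternatives covered background correction, scaling, filters, flags, blocks (slide, scan day, replicate), array weights, the two-way ANOVA of the methods, thresholds and probe choice. Within-line, within-diet and within-scan-day fits, and leaving out 3 arrays, were also run. The members and lists were chosen with earlier results of these data known. Gene names are those of the array annotation, probe sequences are as the scanner files give them, and genome coordinates are not used here. Values of some genes are not reported here.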

Additional observations from a re-analysis of the deposited data

How the results depend on the processing

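The number of members called lower by diet was 63 of 75 and stayed between 51 and 67 under the alternatives that kept all pigs or left out 3 arrays, with 0 called higher, except with spike-in centring, where it was 30. It was 40 in low RFI pigs only, 41 in high RFI pigs only, 39 within scan day 1 and 41 within scan day 2, where fewer pigs entered. The number called for line was 1 (COX16) and became 0 with spike-in centring, after normexp and quantile normalization, in HF pigs only, in LF pigs only and within scan day 1 or scan day 2. The median line difference over members, 0.029, was 0.013 with array weights, 0.0057 with spike-in centring and -0.011 without the 3 arrays. The interaction gave 0 calls throughout. Its estimates (diet difference in low minus that in high RFI pigs) did change side between scan days. Their median over the 75 members was 0.18 within scan day 1, with 3 below 0, and -0.13 within scan day 2, with 69 below 0. Over all tested probes the medians were 0.020 and -0.014, also on opposite sides of 0. Members varied together from pig to pig, so these counts are not of independent estimates. The change of side was not tested. No estimate of a called member changed sign. Of 20 settings with all or nearly all pigs, 30 members were called lower in every one where they were tested, and 8 in none. The latter include NDUFAF1 and COX8H, which were tested in only 1 of these settings. Estimates that were not called and passed 0 in some scaling included those of SDHAF1, ATP5SL, COX2, COX3, ATP5E and ATP5G2. Replicate numbers recur in each group, and same-numbered pigs lay on the same slide and scan day, but no source ties a number to a litter or other batch. Of 72 same-numbered pairs 39 correlated above 0.1 (r -0.24 to 0.50, median 0.13, against -0.011 for pairs of different number). Of 48 pigs 16 correlated best with a pig of their own number. A tie by number cannot be told apart here from the shared slide and scan day. With the replicate block 65 members were called by diet, 1 by line and 0 for the interaction. Subsets of pigs, scan days and the 3 omitted arrays, all of LF pigs, were chosen after seeing the data. Dim members, such as UQCRFS1 and NDUFB1, lie close to background, which limits their folds.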
